A study of Mus musculus with 6 samples.

Results

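Interferon-induced genes were followed in gastrocnemius, the large calf muscle, of aged and young mice. The set comprised 9 listed symbols, chosen around Ifi27l2a, whose higher signal in aged muscle on these same arrays was already known. The question was whether the other genes shared that difference. Members were all probe sets that the platform's gene table assigns to exactly 1 of these symbols, which gave 8 of the 45037 probe sets other than controls. They represented 7 of the 18193 genes that have a probe set of their own: Ifi27l2a, Ifit1, Ifit3, Irf7, Oasl2, Bst2 and, with 2 probe sets, Rtp4. Isg15, a ubiquitin-like protein that is joined to other proteins, shares its only listed probe set with another gene, and Ifi44 has none in the gene table, so neither was analysed here. All animals were male C57B1/6 mice, described as normal and with no treatment in the labels. Total RNA was hybridised to 6 Affymetrix mouse arrays, 3 of aged muscle (replicates 51, 52 and 53) and 3 of young muscle (replicates 1, 2 and 3). The labels give no ages in months. Nor do the labels state that each array was a different animal, and a p-value here therefore describes the spread among these samples, which may be technical.

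Interferons are secreted when cells sense foreign or misplaced nucleic acid. They bind cell surface receptors, whose kinases activate STAT proteins, and a complex of STATs with Irf9 then switches on a large set of antiviral genes through a short promoter sequence, the interferon-stimulated response element. In muscle such genes are expressed by fibres and by vessel, immune and connective tissue cells, and a whole muscle extract contains all of these. In bulk samples a different number of cells of a type and a different amount of RNA per cell cannot be told apart.

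Promoter sequence was available for 7 of the 9 listed genes in RefSeq (GRCm38.p6), and not for Ifi27l2a and Rtp4. The core of the response element, GAAANNGAAA, was searched on both strands in the 250 bases before each gene's start. It was found in 4 of the 7 genes, Ifit1, Ifit3, Bst2 and Isg15, and in 2.98% of 32851 promoters of the same length. No match was found for Irf7, Oasl2 and Ifi44. The stretches around the matches are shown for the 3 genes that also had a signal on the arrays, because these genes hold the sequence through which interferon is known to act and their signal can be set beside that of Ifi27l2a. They read 5′ to 3′ along the gene's strand, with the matches in capitals, on the plus strand at chr19:34640765-34640833 for Ifit1 and chr19:34583353-34583436 for Ifit3, and on the minus strand at chr8:71537567-71537622 for Bst2.
Ifit1: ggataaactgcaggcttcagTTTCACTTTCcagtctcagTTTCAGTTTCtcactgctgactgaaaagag
Ifit3: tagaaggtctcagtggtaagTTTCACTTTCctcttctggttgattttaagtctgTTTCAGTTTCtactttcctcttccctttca
Bst2: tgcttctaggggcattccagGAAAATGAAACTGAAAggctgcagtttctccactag
Each of the 3 promoters held 2 matches, and 0.18% of all promoters held 2 or more. Those of Ifit1 began 104 and 85 bases before the start, and those of Ifit3 156 and 122 bases before it. In Bst2 the matches, at 130 and 124 bases, overlapped each other. A second motif, TTCNNNGAA, the kind of site that STAT dimers bind, occurred only in the Bst2 promoter among the 7, at 136 bases, where it overlapped the first response element match. It was present in 7.02% of all promoters. These matches describe the letters of the windows and do not show that a factor bound there.

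Ifi27l2a was higher in aged muscle, and none of the other tested genes of the set passed the test. Values are signals of the MAS5 algorithm in arbitrary units, and each change is the log2 mean of aged arrays minus that of young arrays, with the standard error of limma and n = 3 arrays per group. Of the 8 probe sets 5 had a mean log2 signal over the 6 arrays of at least 9.08, the median of all probe sets, and were tested among 22519. Those for Oasl2, Bst2 and the second Rtp4 probe set were dimmer and are given as values. Of the 5 tested, 1 was called higher and 0 were called lower at an adjusted p of 0.05. Of all probe sets tested, 0.311% were called higher, 0.742% lower and 1.05% in either direction. The groups did not overlap, with aged arrays higher, for 1 of the 5, against 7.41% of all tested probe sets, and for 1 of the 8 with the dim ones included, against 6.99%. Since the set was assembled around Ifi27l2a, its own call adds nothing to that count. The median change of the 5 was 0.26, and without Ifi27l2a it was 0.11, beside 0.0079 over all tested probe sets. With dim Oasl2 and Bst2 included, log2 signals of the other genes were centred on each gene's mean and averaged. This average was 0.46, 0.17 and 0.32 on aged replicates 51, 52 and 53. On young replicates 1, 2 and 3 it was -0.15, -0.08 and -0.72, so the groups did not overlap. The largest changes in it were those of Oasl2 and Bst2, and it was not tested.

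**Figure D1:**
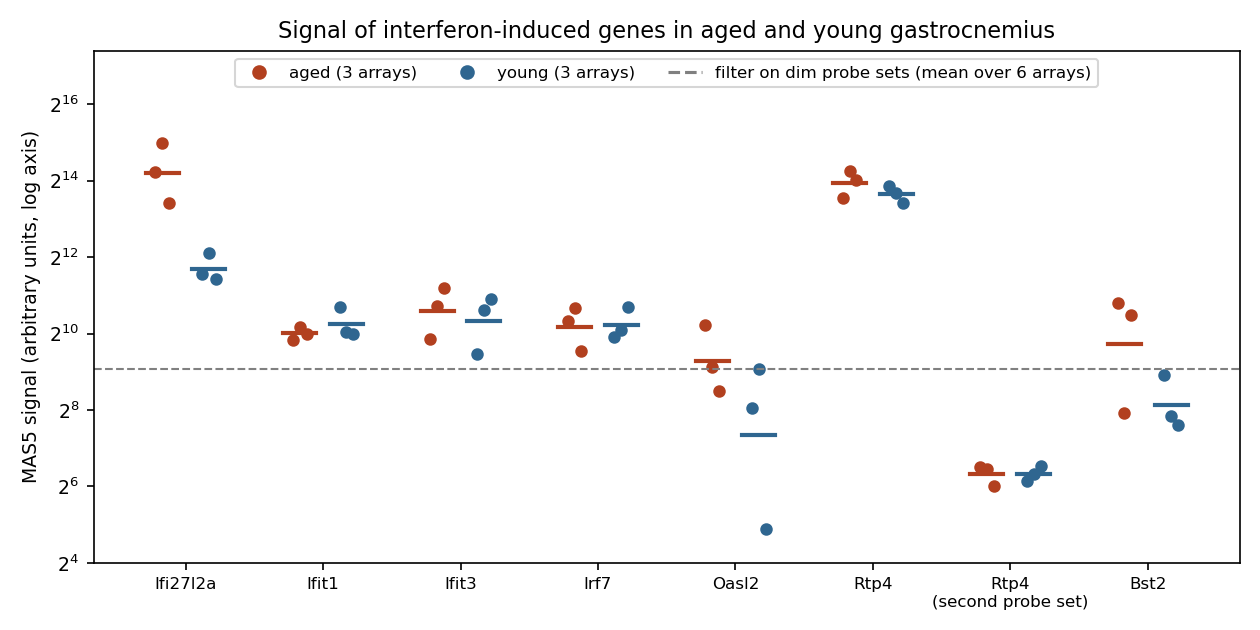
Each point is the MAS5 signal (arbitrary units, log axis) of 1 array, for the 8 probe sets of the set, with aged arrays at the left and young arrays at the right of each gene. Short bars are geometric means of 3 arrays, and the dashed line marks the filter at a signal of 540. Only for Ifi27l2a do the 3 aged arrays, at 10997 to 32223, all lie above the 3 young arrays, at 2771 to 4437.

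Ifi27l2a encodes a small membrane protein of the ISG12 family that interferon induces strongly. Its only probe set had signals of 19106, 32223 and 10997 on aged replicates 51, 52 and 53, against 2988, 4437 and 2771 on young replicates 1, 2 and 3. All aged arrays lay above all young arrays. The geometric mean was 18918 in aged and 3324 in young muscle, a 5.69-fold difference with a 95% interval of 3.30 to 9.81. The log2 change was 2.51 ± 0.36, with an adjusted p of 0.00386 in limma after Benjamini-Hochberg adjustment across the 22519. This was the 84th smallest p and the 82nd largest rise among them. An exact permutation test on this probe set alone gave a two-sided p of 0.1, the smallest that 3 arrays against 3 allow. The aged arrays varied more than the young ones, with a standard deviation of 0.78 against 0.36 on the log2 scale.

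The limits of this value lie in the estimate of the spread and in the layout of the arrays. The fluidics station, which washes and stains the arrays, was shared by aged replicate 51 and the 3 young arrays, while a different one served aged replicates 52 and 53. With the station as a covariate the change was 2.52 and the limma adjusted p 0.0563. Because the second station served aged arrays only, that change rests on aged replicate 51 against the 3 young arrays. It is the same contrast as on the arrays of the first station alone, where 1 aged array faces 3 young ones and the change was also 2.52. The adjusted p of 0.0187 there takes its spread from the young arrays and assumes that the lone aged array varies like them, so it does not offset the call lost with the covariate. When limma modelled the spread with no dependence on brightness the adjusted p was 0.236.

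**Figure D2:**
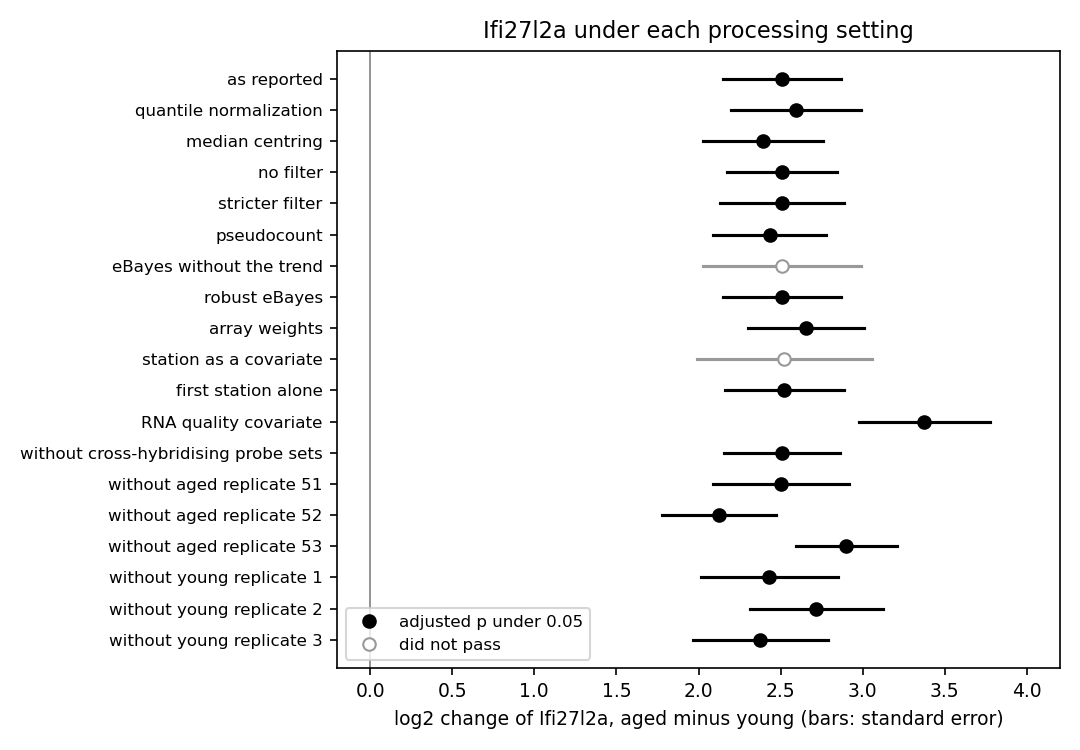
Points are the log2 change of Ifi27l2a, aged minus young, under each processing setting, and bars are its standard error. All values lie between 2.12 and 3.38, and the call is lost, shown by open points, without the trend of the spread and with the station as a covariate.

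Close relatives of Ifi27l2a were examined because a probe set can bind transcripts of similar genes. They were chosen by name after the values of Ifi27l2a were known. In RefSeq the interval of Ifi27 lies inside that of Ifi27l2a on chromosome 12, and Ifi27l2b lies nearby, so the signals of these genes are not certain to be separate. One Ifi27 probe set had signals of 4138, 5879 and 6432 on aged arrays, against 2874, 3440 and 2957 on young arrays. Its groups did not overlap, but its change of 0.81 ± 0.29 did not pass (limma adjusted p = 0.35). The other Ifi27 probe set was at 0.36 ± 0.33 and its groups overlapped. The Ifi27l2b probe set, of a kind prone to cross-hybridisation, had signals of 2411, 1633 and 619 on aged arrays, against 190, 801 and 1503 on young arrays, which overlapped (1.14 ± 0.83, limma adjusted p = 0.677).

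Ifit1 and Ifit3 encode proteins with tetratricopeptide repeats. Ifit1 binds viral RNA that lacks the cap methylation of the cell's own RNA, and the human counterpart of Ifit3 binds and stabilises that of Ifit1. Ifit1 had signals of 914, 1159 and 1020 on aged arrays, against 1666, 1057 and 1020 on young arrays. Its groups overlapped, with young replicate 1 as the highest array. The change was -0.24 ± 0.51 with a 95% interval of -1.35 to 0.87 (limma adjusted p = 0.897). Ifit3 had signals of 927, 1690 and 2322 on aged arrays, against 711, 1575 and 1910 on young arrays. The spread among arrays of each group was wider than the difference between the groups, and the change was 0.26 ± 0.54 with an interval of -0.92 to 1.43 (limma adjusted p = 0.899). Both genes carry paired response element matches, as printed above.

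Irf7 is the transcription factor that amplifies interferon production and is itself induced by interferon. Its probe set had signals of 1283, 1623 and 751 on aged arrays, against 955, 1083 and 1662 on young arrays. The groups overlapped fully, with the lowest array aged and the highest young. The change was -0.04 ± 0.53, with an interval of -1.19 to 1.10 (limma adjusted p = 0.985).

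Rtp4, a chaperone that helps certain receptors reach the cell surface, is also induced by interferon. Its brighter probe set had signals of 11944, 19526 and 16622 on aged arrays, against 14749, 13114 and 10951 on young arrays. It was the most tightly measured of the tested genes, and 2 of 3 aged arrays lay above every young array. The change was 0.29 ± 0.24, with an interval of -0.24 to 0.82 (limma adjusted p = 0.726), so a rise of the size seen for Ifi27l2a lies outside that interval. The second probe set gave 64 to 90 on aged and 71 to 92 on young arrays, in the lowest 1.70% of all probe sets by brightness. The gene table gives both probe sets the same source transcript, yet they differed widely in brightness, and the groups overlapped on both.

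Oasl2 and Bst2 had the next largest differences in the set, on dim probe sets whose groups overlapped. Oasl2 belongs to the family of oligoadenylate synthetases, which make a short RNA signal that activates RNA decay. It had signals of 1185, 559 and 363 on aged arrays, against 267, 533 and 30 on young arrays. The lowest aged array lay below the highest young one, and young replicate 3 stood far below the others. The difference of log2 means was 1.94, and with 1 array left out it ran from 0.72 without young replicate 3 to 2.80 without young replicate 2. Bst2, also called tetherin, holds budding virus particles at the cell surface. It had signals of 1767, 240 and 1423 on aged arrays, against 484, 229 and 195 on young arrays. Aged replicate 52 lay within the young range while the other two aged arrays lay above it. The difference of log2 means was 1.60, and with 1 array left out it ran from 1.07 without aged replicate 51 to 2.51 without aged replicate 52. In a fit without the filter the intervals were -0.68 to 4.57 for Oasl2 and -0.56 to 3.76 for Bst2, with an adjusted p of 0.757 for both in limma.

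**Figure D3:**
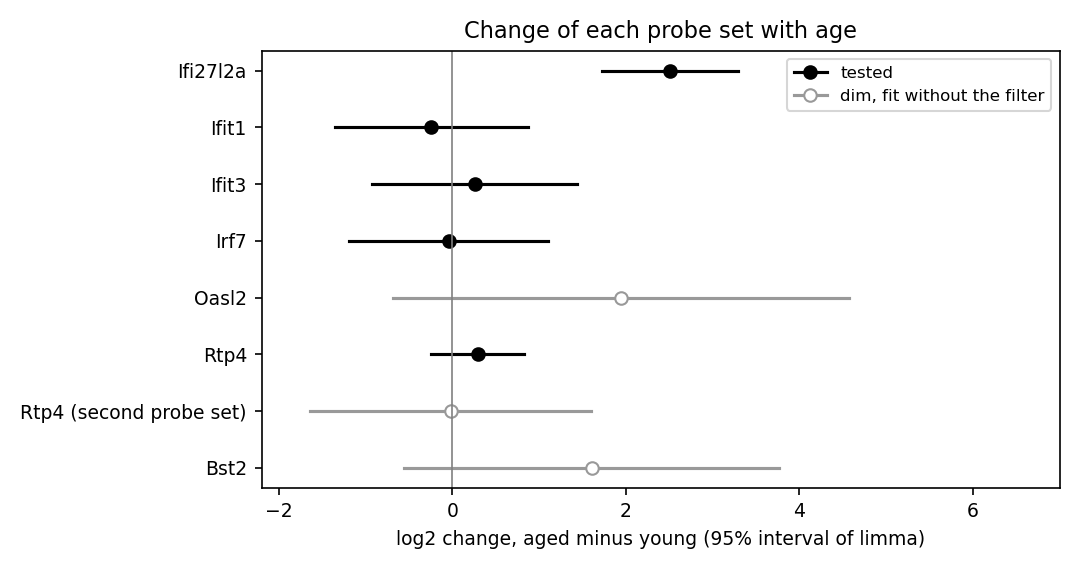
Points are the log2 change of each probe set, aged minus young, with 95% intervals of limma. Filled points were tested, and open points are dim probe sets from the fit without the filter. The interval of Ifi27l2a, 1.72 to 3.29, lies above the upper bounds of Ifit1, Ifit3, Irf7 and the brighter Rtp4 probe set, of which the highest is 1.43, while those of Oasl2 and Bst2 include both 0 and the value of Ifi27l2a.

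Whether Ifi27l2a changed more than each other gene was tested on the difference of the 2 log2 signals within each array, over 6 pairs, with the brighter probe set for Rtp4. The set was assembled around the rise of Ifi27l2a on these same arrays. An excess over the other genes is therefore partly fixed by that choice. The change of Ifi27l2a exceeded that of Ifit1 by 2.75, that of Irf7 by 2.55, that of Ifit3 by 2.25 and that of Rtp4 by 2.22. For these 4 pairs the within-array difference was higher on all 3 aged arrays than on any young array. The exact permutation test gave p = 0.1 for each, the smallest it allows with 3 arrays against 3, and 0.15 after Benjamini-Hochberg adjustment over the 6 pairs, so this test cannot place them past 0.05 at this number of arrays. Ifi27l2a exceeded Oasl2 by 0.57 (exact permutation p = 0.7) and Bst2 by 0.90 (exact permutation p = 0.8), both 0.8 after adjustment. With a pseudocount of 219 added to the signals, which damps dim values, the excess over Oasl2 was 1.497 (exact permutation p = 0.1, the smallest possible) and that over Bst2 1.26 (exact permutation p = 0.5). The order of these last differences turned when 1 array was left out, to -0.086 for Oasl2 without young replicate 2 and to -0.39 for Bst2 without aged replicate 52.

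As a description over the 6 arrays, the signal of Ifi27l2a had a Pearson correlation of 0.67 with Oasl2, 0.57 with Rtp4, 0.38 with Bst2, 0.17 with Irf7, 0.14 with Ifit3 and -0.39 with Ifit1. Among all other named genes tested, the 6 with the pattern most like that of Ifi27l2a were Ppp2r3d (0.993), Ubtf (0.987), Yae1d1 (0.986), Tnfaip8 (0.984), Rreb1 (0.982) and Vps11 (0.982). Ppp2r3d, a regulatory subunit of a protein phosphatase, had signals of 2333, 2950 and 945 on aged arrays, against 212, 400 and 210 on young arrays. None of the 6 passed the test (limma adjusted p 0.154 to 0.686). The mean pattern of the 7 genes, each centred on its own mean, was most like that of Hsph1 (0.999), Gm31367 (0.993), Flacc1 (0.989), Syt5 (0.989), Cp (0.987) and Eif4ebp2 (0.987). These correlations come from 6 arrays in 2 groups, so any gene that differs between the groups scores high.

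Other genes of the interferon response did not pass the test. The list held 51 further genes induced by type I interferon, such as the oligoadenylate synthetases, the Mx proteins and Rsad2, of which 47 had a probe set and 37 were tested, each by its brightest probe set. Of these 0 were called in limma, 3 had an unadjusted p under 0.05, as did 10.04% of all tested probe sets, and 17 were positive and 20 negative. Over all 11763 genes tested 0.391% were called higher and 1.39% in either direction. Their median change was -0.03, beside 0.0028 over all genes tested. Oas2, an oligoadenylate synthetase, had the greatest absolute change, with signals of 4706, 7827 and 3882 on aged arrays, against 1062, 742 and 4687 on young arrays. Young replicate 3 lay within the aged range, and the change was 1.76 ± 0.58 (limma adjusted p = 0.282). Without young replicate 3 it was 2.56 and passed (limma adjusted p = 0.0234). Herc6, an enzyme that attaches Isg15 to proteins in mouse, was at -1.11 ± 0.49 with groups that did not overlap (limma adjusted p = 0.478). Its dim probe sets were at -1.40, -0.13 and, with aged arrays above all young arrays, 3.42, so its probe sets disagreed in direction. Stat2, a part of the complex that binds the response element, was at -0.99 ± 0.79.

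Interferon-induced GTPases, which attack the vacuoles of intracellular microbes, gave a similar account. Of 15 listed 8 were tested, 6 were positive, 0 were called in limma, 1 had an unadjusted p under 0.05, against the same 10.04% of all probe sets, and the median was 0.25. Gbp6 had signals of 5064, 5124 and 5090 on aged arrays, against 2505, 2300 and 808 on young arrays. All aged arrays lay above all young ones, as for 7.58% of genes tested, and its change of 1.61 ± 0.43 did not pass (limma adjusted p = 0.138). Its other probe set was at 0.37. Irgm1 was at 0.62 ± 0.71 and Igtp at 0.51 ± 0.29. Of the p200 family, nuclear and cytosolic DNA-binding proteins, 2 of 7 were tested. Ifi203 had signals of 2538, 837 and 1529 on aged arrays, against 339, 115 and 789 on young arrays, which did not overlap but did not pass (2.24 ± 0.89, limma adjusted p = 0.412). Mndal was at -0.30 ± 0.31.

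**Figure D4:**
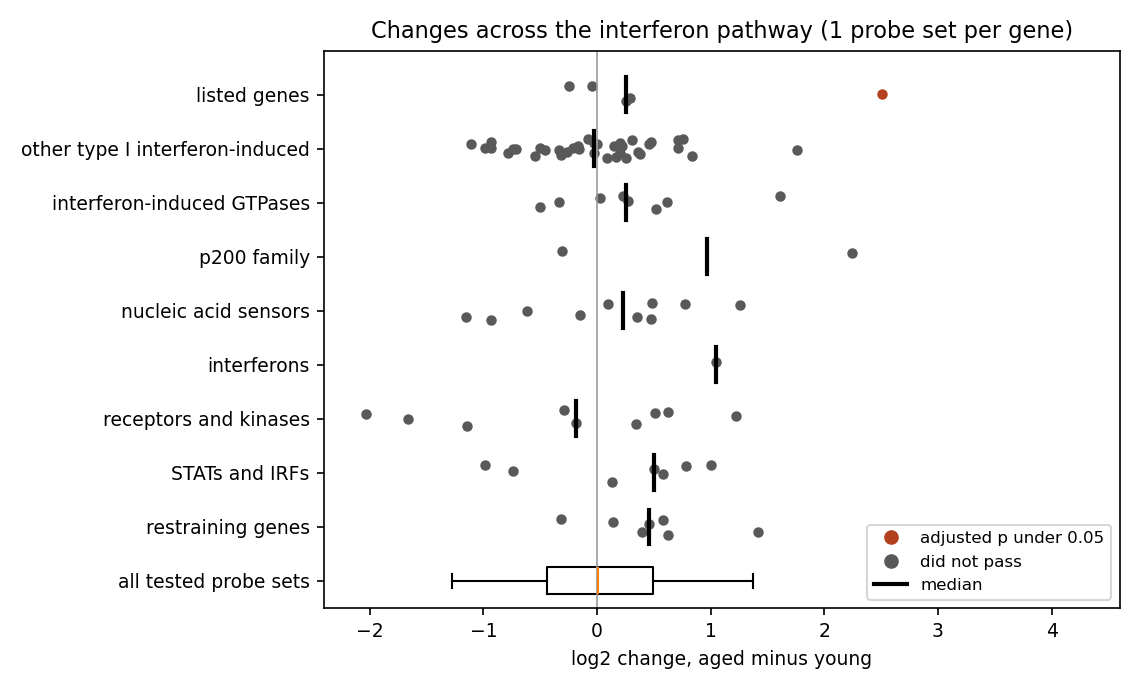
Each point is the log2 change, aged minus young, of 1 tested gene by its brightest probe set, in rows of the listed genes and of other interferon pathway lists, with the median as a bar. The box at the bottom shows all tested probe sets (25th to 75th percentile, whiskers from the 5th at -1.28 to the 95th at 1.37). Ifi27l2a, at 2.51, is the only point past an adjusted p of 0.05, and the listed genes were assembled around its known rise on these arrays.

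Upstream parts of the pathway were examined by role. Of 13 interferon genes, the ligands, 8 had a probe set and 7 of these were dim. Ifnb1, the tested one, had signals of 1163, 762 and 811 on aged arrays, against 122, 1475 and 450 on young arrays, which overlapped (1.05 ± 0.98, limma adjusted p = 0.753). Of 9 receptors and receptor kinases all were tested and 0 were called in limma, with 2 at an unadjusted p under 0.05 beside 10.04% of all probe sets, 4 positive, 5 negative and a median of -0.19. Their summed signal was 14668 to 21436 on aged and 21538 to 23382 on young arrays, which did not overlap. Without the kinase Jak2, named after its values were seen, the sums were 11331 to 13202 on aged and 11342 to 14297 on young arrays, which overlapped. Jak2 itself had signals of 1830, 8234 and 5178 on aged arrays, against 9086, 9020 and 10196 on young arrays (-1.14, limma adjusted p = 0.388). Ifnar1, a chain of the type I interferon receptor, had signals of 804, 185 and 994 on aged arrays, against 2542, 2664 and 1489 on young arrays. All aged arrays lay below all young arrays, and the change of -2.03 ± 0.68 did not pass (limma adjusted p = 0.292). Tyk2, the kinase attached to that chain, was at -1.66 ± 0.85, and Ifnlr1, a chain of the type III receptor, was at 1.22 ± 0.67. The other Tyk2 probe set, a dim one, was at 1.24, in the opposite direction.

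Of the other transcription factors of the pathway 7 were tested, 0 were called in limma with 0 at an unadjusted p under 0.05, 5 were positive and the median was 0.50. Irf5 and Irf8, factors of immune cells, were at 1.00 ± 0.52 and 0.78 ± 0.68. For each, as for 7.58% of genes tested, all aged arrays lay above all young arrays, while the other Irf8 probe set was at 0.13. Stat3 was at 0.58 ± 0.35 with the same separation. Its other tested probe sets were at -0.23 and 0.75 and a dim one at 1.62, all with groups that overlapped. The 2 negative genes were Stat2 at -0.99 ± 0.79 and Irf9 at -0.74 ± 0.91. Of the genes that restrain interferon signalling 7 were tested, 0 were called in limma with 0 at an unadjusted p under 0.05, 6 were positive and the median was 0.46. Ptpn6, a phosphatase of blood cells, was at 1.42 ± 0.73, Samhd1, which degrades the building blocks of DNA, at 0.63 ± 1.10, and Pias1, a ligase that attaches SUMO to proteins, at 0.58 ± 0.61. Other probe sets of Samhd1 ran from -2.36 to 0.53, and other tested ones of Pias1 were at -0.41 and -0.37. The other Ptpn6 probe set, a dim one, was at -0.49, so the probe sets of each of these genes disagreed in direction. Of 14 sensors of nucleic acid and their adaptors 10 were tested, 0 were called in limma with 0 at an unadjusted p under 0.05, 6 were positive and the median was 0.22. Tlr9, a receptor for microbial DNA, was at 1.26 ± 0.58 with aged arrays above all young arrays, as for 7.58% of genes tested. Tlr7, a receptor for RNA, was at -1.16 ± 0.97, while its dim probe sets were at 1.47 and 0.57. Zbp1, which binds unusual nucleic acid, was at -0.93 ± 0.87.

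Markers of cells that could carry these transcripts were read beside the set. Skeletal muscle markers were bright, as the labelled tissue requires, and lower in aged muscle without passing the test. All 12 were tested and all 12 were negative with a median of -0.61, where 50.2% of all genes tested were positive. In limma 0 were called, and 8 had an unadjusted p under 0.05, as did 10.04% of all tested probe sets. For 8 of the 12 markers aged arrays lay below all young arrays. How common this is over all probe sets was not counted, so neither this count nor the same separation of Herc6 and Ifnar1 can be judged against it. The summed signal of the 12 markers was 2042330 to 2331680 on aged and 2917840 to 3532120 on young arrays. Ckm, the muscle creatine kinase, alone gave 110810, 134050 and 70905 on aged arrays, against 189914, 202965 and 135805 on young arrays. No probe set of the table was at 0. B and plasma cell markers, of which 10 of 11 had a probe set and 6 were tested, summed to 14090 to 16834 on aged and 10209 to 13666 on young arrays, which did not overlap. Without Jchain, left out after the values were seen, the sums were 10445 to 12480.9 on aged and 9391 to 13072 on young arrays, which overlapped. Jchain, the joining chain of secreted antibody, had signals of 4353, 2234 and 4425 on aged arrays, against 135, 818 and 860 on young arrays (2.94 ± 0.70, limma adjusted p = 0.0911, and 0.0426 without the filter), while Cd79a was at 0.64 ± 0.74. Of the 6 tested 4 were positive and 2 negative, with Sdc1 at -0.81, Pax5 at -0.14 and Xbp1 at 0.00048. The summed signals of the other blood and vessel cell lists overlapped between the groups. Every sum here holds each listed gene that has a probe set, dim ones included, so a few bright probe sets can make up most of it. Macrophage markers, with 13 of 19 tested, summed to 125157 to 228909 on aged and 118800 to 152432 on young arrays, with Adgre1 at 0.15 and Cd68 dim. On aged replicate 51 Lyz1 gave 100928 of this sum and Csf1r 77293. T and NK cell markers, with 7 of 14 tested, summed to 18491 to 46009 on aged and 15463 to 31448 on young arrays, with Cd3e at 0.077. Cd8a alone gave 35842 on aged replicate 51, and its other tested probe sets were at 0.94 and -1.28. Plasmacytoid dendritic cells express Bst2 and Siglech and make much interferon. Their list, with 4 of 7 tested, summed to 17124 to 21365 on aged and 20093 to 23067 on young arrays, and Siglech was dim. Neutrophil markers, with 4 of 9 tested, summed to 4615 to 9366 on aged and 4221 to 5078 on young arrays. Endothelial markers, with 8 of 10 tested, summed to 17870 to 21967 on aged and 20821 to 22892 on young arrays, with Pecam1 dim. The part of these cells in the signal of Ifi27l2a was not tested.

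The log2 ratio of 3 prime to 5 prime control signal, a measure of RNA quality, was 2.11, 2.00 and 2.86 on aged arrays, against 1.71, 1.77 and 1.75 on young arrays. The difference of 0.58 had an exact permutation p of 0.1, the smallest possible. With this ratio as a covariate Ifi27l2a was at 3.38 and passed (limma adjusted p = 0.00463). All aged arrays lay above all young arrays on the ratio, so age and RNA quality cannot be told apart here. That pass therefore does not show that the call is free of RNA quality.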

How the data were processed

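Total RNA of gastrocnemius muscle was labelled with biotin and hybridised, per the labels' protocols, with 1 array for each sample. The authors deposited 1 intensity per probe set on a linear scale, and the submitters' processing notes name MAS5. Its version is not stated there. After trimming 2% at each end every array had a mean of 1500, so the authors' values were scaled to 1 mean, which assumes that it is alike in all samples. Array medians were 637 to 833. The table has 45101 probe sets, and no 2 arrays were duplicates.

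Intensities were taken to log2, 64 control probe sets were left out, and probe sets with a mean below 9.08 (a signal of 540) were dropped as dim. The groups were then fitted in limma 3.58.1 under R 4.3.3 (eBayes with a trend, two-sided, Benjamini-Hochberg adjustment over 22519 probe sets, threshold 0.05), and single values with exact permutation tests. Of these steps only the limma fit was tested on simulated data. There the spread depended on brightness alone and no station difference was added, so that run cannot show how the calls depend on them. Genes were named from the platform's table. It gives 34945 probe sets 1 symbol and 932 several, which were left unnamed, and 9160 are not in it. All 8 member gene IDs matched RefSeq. Figures used Python 3.11.15 and matplotlib 3.10.9.

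The members, lists, tests and alternatives were chosen with earlier results of these data known. The text names every member, every gene of a pathway list that passes or else the up to 3 of greatest absolute change, the 6 genes most like each of 2 patterns, and 7 defining cell markers. Other genes named were chosen after their values were seen. Some genes belong to several lists. Stat2, Irf9, Usp18 and Zbp1 also count among the further type I interferon-induced genes, and Bst2, a member, among the plasmacytoid dendritic cell markers. Precision is limited by the number of arrays.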

Additional observations from a re-analysis of the deposited data

How the results depend on the processing

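Under 18 alternatives Ifi27l2a stayed higher in aged muscle, at 2.12 to 3.38, and passed in 16. Of the 17 with 2 or more arrays in each group it passed in 15, and the remaining one, the first station alone, has 1 aged array. The fit with the station as a covariate is counted in the 17, but its change also rests on aged replicate 51 alone. With 1 array left out it was at 2.12 to 2.90, and 1 member passed each time. Without the trend of the spread it was at 2.51 (limma adjusted p = 0.236), 0 members passed, and 21 probe sets passed over the whole table against 237. With the station as a covariate it was at 2.52 (limma adjusted p = 0.0563) and 0 members passed. The count over the whole table was 365 on the first station alone, 138 with the RNA quality covariate, and 124 to 342 with 1 array left out. It fell short of 237 by more than 1.5 times when any single young array (131 without replicate 1, 124 without replicate 2, 152 without replicate 3) or aged replicate 52 (149) was omitted. The number of other interferon-induced genes called higher was 0 to 1 with 1 array left out. Median centring moved the median of all probe sets to -0.11, with Ifi27l2a at 2.39.

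Small changes of the other members turned sign, none past the test. With the station as a covariate, and equally on the first station alone, Ifit3 was at -0.48, Irf7 at 0.0996 and Rtp4 at -0.10. With the RNA quality covariate Ifit3 was at -0.37 and Irf7 at 0.63. With array weights Irf7 was at 0.0086. With 1 array left out Ifit3 was at -0.17 to 0.62 and Irf7 at -0.29 to 0.27. The excess of Ifi27l2a was -0.086 to 1.66 over Oasl2 and -0.39 to 1.67 over Bst2 with 1 array left out, and with the pseudocount it was 1.497 over Oasl2 (exact permutation p = 0.1, against 0.7 without it) and 1.26 over Bst2. The causes were not tested. No paired analysis was possible because the groups share no replicate numbers. The dim probe sets of Oasl2 and Bst2 limit what can be said of them.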

Other observations

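Several dim probe sets of pathway genes, below the filter and chosen here after their values were seen, had aged arrays above all young arrays, as did 6.99% of all probe sets. Gbp8, an interferon-induced GTPase, had signals of 618, 319 and 450 on aged arrays, against 77, 59 and 34 on young arrays, a log2 difference of 3.06 (limma adjusted p = 0.395 in a fit without the filter). Pml, the scaffold of antiviral nuclear bodies, differed by 2.02 on the brightest of its 3 dim probe sets and by -1.47 and 1.07 on the others. Ifit2, a relative of Ifit1 and Ifit3, had signals of 352, 937 and 702 on aged arrays, against 220, 307 and 308 on young arrays, a difference of 1.16 (limma adjusted p = 0.84 without the filter). In the other direction Ddx60, a helicase that aids RNA sensing, differed by -1.86 with aged arrays below all young arrays. Its other dim probe set differed by -0.24 with groups that overlapped. The share of all probe sets with aged arrays below all young arrays was not counted.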
